A study of Homo sapiens with 6 samples.

Results

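The small subunit processome and 40S assembly factors are the proteins that build the small ribosomal subunit. Their transcripts were measured in 6 RNA-seq libraries of human embryonic stem cells, 4 with DDX18 knocked down and 2 controls. With earlier results of these data known, 50 factors were chosen by name, as factors of 18S rRNA processing and 40S assembly. They were matched to the symbols of the deposited table. A total of 49 had a row, out of 17929 genes, and PWP2 is not analysed here. The groups were shDDX18#1, shDDX18#3 and shLuc. The first pair are short hairpin RNAs against DDX18, and shLuc is the control hairpin against luciferase. Each group holds 1 library of the established line H9 and 1 of the established line HES2, so there are 4 knockdown libraries and 2 shLuc libraries. All cells were infected with hairpin virus, collected on day 4, and kept on irradiated mouse embryonic fibroblasts as a feeder layer in medium with bFGF. Whether the libraries of a line were separate cultures is not in the labels, and the spread behind each p-value is that among these 6 samples, which may be technical. In knockdown against shLuc this spread also holds the difference between the hairpins and any difference in response between the lines.

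Ribosome production starts in the nucleolus, where RNA polymerase I copies a long precursor that carries the 18S rRNA between spacers. The UTP-A and UTP-B complexes and the U3 box C/D particle load onto the spacer ahead of the 18S rRNA and, with many further proteins, fold it into a giant particle, the small subunit processome. Enzymes there cut the spacers away and modify bases, and a later set of factors escorts the pre-40S particle to the cytoplasm for the last cut. Stem cells that divide fast make many ribosomes and carry large nucleoli. DDX18 is a nucleolar DEAD-box RNA helicase, and its yeast counterpart, Has1, takes part in making both subunits.

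The promoters of 6 members are printed here because they are the ends of the range described below: the 4 members with the smallest p in knockdown against shLuc, and the 2 with the largest. Each is the 250 bases before the annotated start, 5′ to 3′ on the strand of the gene, from RefSeq on GRCh38.p14. NAT10 is at chr11:34105379-34105628 on the plus strand, TBL3 at chr16:1971803-1972052 on the plus strand and FBL at chr19:39846380-39846629 on the minus strand. WDR75 is at chr2:189441224-189441473, UTP3 at chr4:70688282-70688531 and EMG1 at chr12:6970663-6970912, all 3 on the plus strand. Capitals mark the motifs searched for on both strands: the E-box, which is CACGTG on either strand, the ETS motif, which is CCGGAAG, and the CCAAT box. Matches on the opposite strand are marked too.
NAT10: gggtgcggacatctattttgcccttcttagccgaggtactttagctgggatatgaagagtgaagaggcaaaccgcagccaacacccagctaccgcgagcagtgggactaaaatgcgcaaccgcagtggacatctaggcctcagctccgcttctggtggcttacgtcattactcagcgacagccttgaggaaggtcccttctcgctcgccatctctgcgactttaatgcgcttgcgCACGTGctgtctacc
TBL3: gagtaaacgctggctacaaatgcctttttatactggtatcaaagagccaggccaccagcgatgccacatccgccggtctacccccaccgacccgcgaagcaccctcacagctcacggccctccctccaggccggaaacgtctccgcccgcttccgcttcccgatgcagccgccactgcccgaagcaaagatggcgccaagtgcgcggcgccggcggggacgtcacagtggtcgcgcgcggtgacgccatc
FBL: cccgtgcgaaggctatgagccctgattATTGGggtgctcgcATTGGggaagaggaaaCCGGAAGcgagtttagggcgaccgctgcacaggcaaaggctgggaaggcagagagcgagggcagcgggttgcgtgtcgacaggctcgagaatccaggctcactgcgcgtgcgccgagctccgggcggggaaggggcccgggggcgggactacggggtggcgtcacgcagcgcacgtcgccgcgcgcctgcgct
WDR75: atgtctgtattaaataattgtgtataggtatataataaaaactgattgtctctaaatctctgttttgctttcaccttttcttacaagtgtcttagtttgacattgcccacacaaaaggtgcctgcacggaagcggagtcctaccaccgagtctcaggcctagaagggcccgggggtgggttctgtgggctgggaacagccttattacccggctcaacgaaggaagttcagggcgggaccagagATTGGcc
UTP3: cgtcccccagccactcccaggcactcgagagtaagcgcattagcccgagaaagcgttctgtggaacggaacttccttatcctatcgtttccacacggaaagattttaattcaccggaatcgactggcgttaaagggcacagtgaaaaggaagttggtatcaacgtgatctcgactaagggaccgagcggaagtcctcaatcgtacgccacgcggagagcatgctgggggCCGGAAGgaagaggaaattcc
EMG1: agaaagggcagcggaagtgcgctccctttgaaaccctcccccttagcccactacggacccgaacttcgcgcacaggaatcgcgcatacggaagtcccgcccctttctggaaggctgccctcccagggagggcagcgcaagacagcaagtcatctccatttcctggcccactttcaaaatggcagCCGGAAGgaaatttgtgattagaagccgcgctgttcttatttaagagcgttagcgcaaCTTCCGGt
The NAT10 window holds an E-box whose first base lies 15 bases before the start, and the WDR75 window a CCAAT box at 7 bases. FBL has CCAAT boxes, read here as ATTGG, at 223 and 209 bases and an ETS motif at 193 bases. TBL3 holds none of the motifs, UTP3 has an ETS motif at 21 bases, and EMG1 has ETS motifs at 66 and 8 bases, the nearer one read as CTTCCGG.

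In the same windows, 43 of the 49 members matched a RefSeq entry. An ETS motif was in 15 of the 43 (34.9%), against 8.52% of all 35116 promoters and 10.7% of the 22199 protein-coding ones. TCGCGA, a palindrome, was in 6 (14%), against 2.64% of all promoters, and CACGTG in 7 (16.3%), against 6.34%. CCAAT was in 19 (44.2%), against 32.0% of all promoters, and GCATGCGC (GCGCATGC on the other strand) in 3 (6.98%), against 2.63%. Of the members called lower after knockdown, 10 had an entry, and 4 of these held an ETS motif, against 11 of the 33 members not called. CACGTG was in 2 of the 10 and in 5 of the 33. Matches of different motifs shared a base in 0 of the 43 windows. The median GC content was 62.4% in member windows, 58.0% in all windows and 62.0% in protein-coding ones. A match is only these letters in this window.

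Levels are given in CPM, the deposited signal, in which counts are scaled to 1000000 reads after the authors' library scaling. The libraries held 2668179 to 3391529 reads in the knockdowns and 3647530 and 4271741 reads in shLuc, so that 3 reads, taken as the floor, are worth 0.671 to 1.23 CPM. This covers counting error only. All 49 members passed the filter of at least 1 CPM in at least 2 libraries, as did 17768 genes in all. DDX18 transcript stood at 12.6% and 31.0% of shLuc in H9 with shDDX18#1 and shDDX18#3, and at 24.5% and 37.6% in HES2. Of 20 pluripotent stem cell markers, 18 were above 10 CPM in every library, and the exceptions were DPPA2, at 0.408 to 2.49 CPM, and POU5F1, at 0.322 to 3.58 CPM, a gene with many near copies in the genome.

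The members were well expressed. Their means over the 6 libraries ran between 21.7 CPM for RCL1 and 257.5 CPM for NOP56, with a median of 68.1 CPM, against 17.9 CPM over all genes tested. Set per kilobase of annotated exon in GENCODE on GRCh38, the levels were led by the U3 particle. FBL averaged 64.2 CPM per kb in the knockdowns and 125 CPM per kb in shLuc, and NOP56 averaged 37.5 and 68.2 CPM per kb in the same groups. At the low end, UTP15 averaged 4.57 CPM per kb in the knockdowns and 6.12 CPM per kb in shLuc, close to RCL1, at 4.60 and 6.25 CPM per kb.

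Knockdown against shLuc asks what the loss of DDX18 does to the transcripts of this machinery. Of the 49 members, 13 fell and 0 rose (limma, adjusted p under 0.05, 26.5% of the members called lower), while 6.26% of all genes tested were called lower and 9.60% higher. Here and below, a gene that fell or rose is one called at this threshold. The members were chosen with earlier results of these data known, so these shares are descriptive. The median of the members' log2 fold changes was -0.46, against -0.02 over all genes, and 46 of the 49 lay below 0. At an unadjusted p under 0.05 there were 27 members, 27 of them lower and 0 higher. Of the 17768 genes tested, 5882 had such a p, 2781 of them lower and 3101 higher. The calls were NAT10, TBL3, FBL, WDR75, NOP56, NOP58, RRP12, NOB1, PDCD11, IMP4, TSR1, SNU13 and WDR3. They sit in 7 of the 8 role groups, and every one of the 13 was lower in all 4 knockdown libraries than in both shLuc libraries. The 13 were picked by a test on these same values, so their separation adds no support. Of the 49 members 36 had such separation, against 20.9% of all genes. Together the members took 0.257% and 0.333% of reads in H9 shDDX18#1 and shDDX18#3 and 0.338% and 0.391% in the same arms of HES2, against 0.489% in H9 shLuc and 0.491% in HES2 shLuc. In a bulk library, fewer cells of a type and less RNA per cell cannot be told apart. The count rests on the shLuc libraries: without H9 shLuc or HES2 shLuc a lone control was left, and few genes of any kind were called. The members' median was then -0.34 and -0.61, in that order. The count was 1 without HES2 shDDX18#1 (1.39% of all genes lower) and 7 without HES2 shDDX18#3 (2.79%). It was 5 with no cell line block (2.3%) and 1 in limma without the intensity trend (1.92%). By edgeR and DESeq2 on the recovered reads it was 13 (6.69%) and 14 (5.87%). With a filter of 5 CPM it was 16, against 8.62% of the genes then tested.

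**Figure D1:**
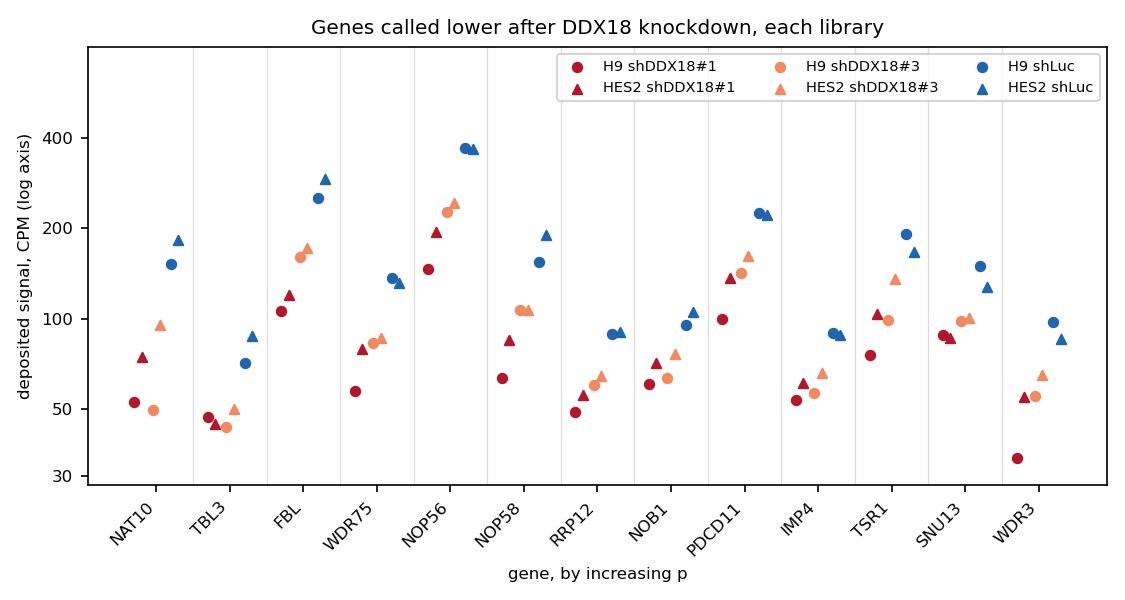
Deposited signal in CPM (log axis) of the 13 members called lower, ordered by p, with 1 point per library: shDDX18#1 and shDDX18#3 left of shLuc, circles for H9 and triangles for HES2. The genes were picked by the test on these same values, and for every gene the 4 knockdown points lie below both shLuc points.

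The U3 box C/D particle, which guides the first cuts of the precursor, held the most calls: 4 of its 5 proteins fell, with a median log2 fold change of -0.89. FBL (fibrillarin, ENSG00000105202), the methyltransferase of box C/D particles, had 106 and 160 CPM in H9 with shDDX18#1 and shDDX18#3 and 120 and 172 CPM in HES2, against 252 CPM in H9 shLuc and 292 CPM in HES2 shLuc. It averaged 139 ± 31.4 CPM in the knockdowns (SD, n = 4) and 272 ± 27.8 CPM in shLuc (SD, n = 2), and limma put the log2 difference at -0.98 ± 0.21 (SE, adjusted p = 0.0207). Every knockdown value was under every shLuc value, and in each line shDDX18#1 was the lower of the hairpins. NOP56 (ENSG00000101361), a core scaffold of the same particles, had 146 and 227 CPM in H9 and 194 and 242.5 CPM in HES2 for shDDX18#1 and shDDX18#3, against 370 and 366 CPM in the shLuc libraries of H9 and HES2 (-0.89 ± 0.20, limma adjusted p = 0.0260). Its partner NOP58 (ENSG00000055044) read 63.7 and 107 CPM in H9 and 84.6 and 107 CPM in HES2, against 154 and 190 CPM in shLuc (-0.94 ± 0.22, limma adjusted p = 0.0262). NOP56 and NOP58 carry 5 and 4 snoRNA genes within their introns in the annotation, so their transcription also makes guide RNAs.

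SNU13 (ENSG00000100138), which binds the kink-turn of box C/D RNAs and also belongs to the U4 spliceosomal particle, had 88.2 and 98.5 CPM in H9 and 86.2 and 100.5 CPM in HES2, against 150 and 128 CPM in shLuc. Its groups did not overlap, and its fall of 0.57 on the log2 scale passed the test (SE 0.15, limma adjusted p = 0.0374). RRP9, the protein that marks the U3 particle among box C/D particles, was the member of the group with the largest p. It averaged 59.2 ± 2.76 CPM in the knockdowns (SD, n = 4) and 71.5 ± 8.85 CPM in shLuc (SD, n = 2), with a log2 fold change of -0.26 ± 0.15 and a limma adjusted p of 0.246.

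**Figure D2:**
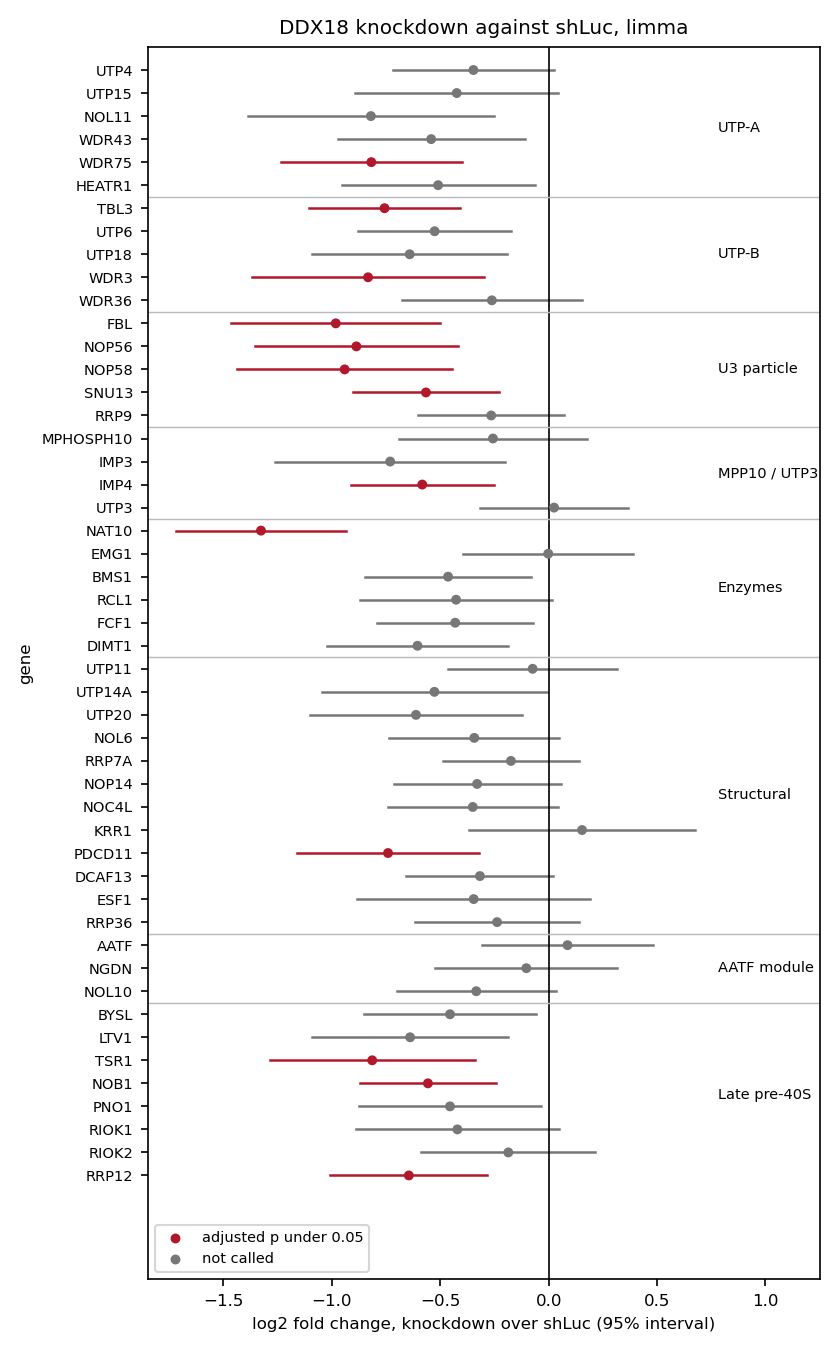
Log2 fold change of each of the 49 members in knockdown over shLuc, as limma point estimates with 95% intervals, grouped by role, in red where the adjusted p was under 0.05. The points of 46 members lie left of 0, and NAT10 is farthest left at -1.33.

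Among the processome enzymes, 1 of 6 fell, and it had the largest change of all members. NAT10 (ENSG00000135372), the acetyltransferase that modifies cytidines of 18S rRNA, had 52.7 and 49.6 CPM in H9 with shDDX18#1 and shDDX18#3 and 74.3 and 95.2 CPM in HES2, against 152 CPM in H9 shLuc and 182 CPM in HES2 shLuc. All 4 knockdown values lay below both controls by a wide gap, and HES2 was above H9 within every arm. Knockdown averaged 68.0 ± 21.2 CPM (SD, n = 4) and shLuc 167 ± 21.4 CPM (SD, n = 2), a log2 fold change of -1.33 ± 0.17 with a limma adjusted p of 0.00408. EMG1, a methyltransferase of 18S rRNA, was at the other end. Its values of 66.6 and 57.7 CPM in H9 and 57.9 and 48.5 CPM in HES2 lay between its shLuc values of 71.4 CPM in H9 and 46.1 CPM in HES2, and its log2 fold change was -0.00 ± 0.17 (limma adjusted p = 0.996). On the annotation, 49.5% of the EMG1 exon bases overlap LPCAT3 on the opposite strand, and the library kit does not keep strand, so reads of the pair cannot be told apart there. DIMT1, which dimethylates adenosines of 18S rRNA, averaged 28.6 ± 4.75 CPM in the knockdowns and 43.6 ± 2.88 CPM in shLuc and just missed the test (-0.605 ± 0.18, limma adjusted p = 0.0579). BMS1, a GTPase of the processome, averaged 108 ± 20.5 CPM and 148 ± 1.01 CPM in the same groups (-0.46 ± 0.17, limma adjusted p = 0.0935). Both genes had non-overlapping groups, as did 36 of the 49 members, a pattern met in 20.9% of all genes, and 0 members lay wholly above shLuc, against 19.8% of all genes.

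In UTP-A, the complex that binds first and is tied to transcription by RNA polymerase I, 1 of 6 members was called lower, with a group median of -0.53. All 6 estimates were negative, from -0.82 to -0.35, and no difference between role groups was tested. WDR75 (ENSG00000115368), a WD-repeat subunit, had 57.6 and 83.0 CPM in H9 and 79.5 and 86.0 CPM in HES2 for shDDX18#1 and shDDX18#3, against 137 and 132 CPM in the shLuc libraries of H9 and HES2 (-0.82 ± 0.18, limma adjusted p = 0.0234). The shLuc libraries nearly coincided, and the lowest value was that of H9 shDDX18#1. NOL11, a subunit found in animals, had as large an estimate but a wider error: 40.4 and 58.4 CPM in H9 and 55.4 and 81.9 CPM in HES2, against 112 and 92.5 CPM in shLuc (-0.82 ± 0.25, limma adjusted p = 0.0582). WDR43 averaged 122 ± 19.7 CPM in the knockdowns and 177 ± 21.2 CPM in shLuc (-0.54, limma adjusted p = 0.0861), and UTP15 averaged 28.9 ± 4.89 CPM and 38.7 ± 0.0599 CPM in the same groups (-0.42, limma adjusted p = 0.188).

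In UTP-B, the next complex to load on the spacer, 2 of 5 members fell, with a median of -0.64. TBL3 (ENSG00000183751), the counterpart of yeast Utp13, had 47.0 and 43.8 CPM in H9 and 44.7 and 50.1 CPM in HES2, against 71.2 and 87.6 CPM in shLuc. Its 4 knockdown values were close together, at 46.4 ± 2.83 CPM (SD, n = 4), and its log2 fold change was -0.76 ± 0.15 (limma adjusted p = 0.0177). On the annotation 29.9% of TBL3 exon bases overlap NOXO1 on the other strand, a gene with a mean of 3.82 CPM. WDR3 (ENSG00000065183), the counterpart of yeast Utp12, had 34.3 and 55.1 CPM in H9 and 54.7 and 64.9 CPM in HES2, against 97.5 and 85.8 CPM in shLuc (-0.83 ± 0.23, limma adjusted p = 0.0461). Its exons overlap SPAG17 on the other strand over 17.1% of their bases, a gene with 4.08 and 5.19 CPM in H9 and 4.50 and 5.85 CPM in HES2, against 9.41 and 7.15 CPM in shLuc. UTP6 averaged 63.7 ± 5.83 CPM in the knockdowns and 92.1 ± 7.58 CPM in shLuc and missed the test (-0.53 ± 0.15, limma adjusted p = 0.0532). WDR36, a gene first linked to glaucoma, averaged 50.3 ± 10.1 CPM and 59.6 ± 6.06 CPM, with overlapping groups (-0.26 ± 0.18, limma adjusted p = 0.347).

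The MPP10 complex helps the U3 RNA to pair with the precursor, as known from yeast. Of its 3 proteins and UTP3, 1 fell, IMP4 (ENSG00000136718), with 53.5 and 56.7 CPM in H9 and 61.1 and 65.7 CPM in HES2, against 89.7 and 88.3 CPM in shLuc (-0.58 ± 0.14, limma adjusted p = 0.0327). IMP3 had a larger estimate and a wider spread, at 43.7 and 71.0 CPM in H9 and 77.9 and 83.0 CPM in HES2, against 118 and 106 CPM in shLuc (-0.73 ± 0.23, limma adjusted p = 0.0658). MPHOSPH10, the scaffold of the complex, averaged 52.6 ± 6.43 CPM in the knockdowns and 63.2 ± 11.97 CPM in shLuc, with overlapping groups (limma adjusted p = 0.376). UTP3, the counterpart of yeast Sas10, had 51.8 to 57.6 CPM in the knockdowns and 49.8 and 56.6 CPM in shLuc, a log2 fold change of 0.025 ± 0.15 (limma adjusted p = 0.925).

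Of 12 structural and connecting factors, 1 fell, and their median was -0.34. PDCD11 (ENSG00000148843), whose yeast counterpart Rrp5 serves both subunits, had 100.1 and 142 CPM in H9 and 136 and 161 CPM in HES2, against 224 and 222 CPM in shLuc (-0.74 ± 0.18, limma adjusted p = 0.0320). UTP20, a long repeat protein, averaged 102 ± 20.6 CPM in the knockdowns and 154 ± 18.7 CPM in shLuc (-0.61 ± 0.21, limma adjusted p = 0.0856). UTP14A, which in yeast activates a helicase that frees U3, had 27.4 to 48.0 CPM in the knockdowns and 69.8 CPM in H9 shLuc and 44.0 CPM in HES2 shLuc, so that its groups overlapped (-0.53 ± 0.23, limma adjusted p = 0.146). Its retrotransposed copy UTP14C had 33.7 to 38.4 CPM in the knockdowns and 38.5 and 29.96 CPM in shLuc, and reads of the pair can be misplaced. UTP11 averaged 45.8 ± 7.70 CPM and 47.8 ± 0.551 CPM (-0.07, limma adjusted p = 0.792).

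KRR1, a KH-domain RNA binding protein, was singled out after its values were seen, as the member with the largest positive estimate. It had 129 and 89.5 CPM in H9 with shDDX18#1 and shDDX18#3 and 56.0 and 64.3 CPM in HES2, against 72.8 CPM in H9 shLuc and 71.3 CPM in HES2 shLuc (0.15 ± 0.23, limma adjusted p = 0.671). Its estimate rests on single libraries: it was -0.245 when H9 shLuc was left out, -0.014 when H9 shDDX18#1 was, and 0.553 when HES2 shLuc was. The knockdown values lay above shLuc in H9 and below it in HES2. With the line block, the fits without H9 shLuc and without HES2 shLuc give the HES2 and the H9 difference. On the annotation 14.1% of KRR1 exon bases overlap GLIPR1 on the opposite strand, which had 180 and 115 CPM in H9 and 37.3 and 34.8 CPM in HES2, against 47.1 and 31.8 CPM in shLuc. Whether GLIPR1 reads add to those of KRR1 was not tested.

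The AATF, NGDN and NOL10 module, a nucleolar complex of human cells, had 0 of 3 members called by limma, 0 by edgeR and 0 by DESeq2, and a median of -0.10. AATF had 71.5 and 55.4 CPM in H9 and 72.4 and 59.0 CPM in HES2, against 62.9 and 57.9 CPM in shLuc (0.09 ± 0.17, limma adjusted p = 0.755), and shDDX18#1 was above shLuc in both lines. NGDN averaged 30.5 ± 4.10 CPM in the knockdowns and 32.7 ± 1.95 CPM in shLuc (limma adjusted p = 0.729). NOL10 had the lowest estimate of the group, -0.33 ± 0.16, with 41.6 ± 2.76 CPM in the knockdowns and 52.7 ± 4.96 CPM in shLuc (limma adjusted p = 0.185).

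Of 8 late pre-40S factors 3 fell, and their median was -0.51. TSR1 (ENSG00000167721), a GTPase-like factor that occupies the site of translation factors on the immature subunit, had 75.5 and 99.2 CPM in H9 and 103 and 135 CPM in HES2, against 192 and 166 CPM in shLuc (-0.81 ± 0.21, limma adjusted p = 0.0352). NOB1 (ENSG00000141101), the nuclease that makes the last cut of 18S rRNA, had 60.9 and 63.5 CPM in H9 and 71.4 and 76.6 CPM in HES2, against 95.2 and 105.5 CPM in shLuc (-0.56 ± 0.14, limma adjusted p = 0.0319). RRP12 (ENSG00000052749), an export factor of both subunits in yeast, had 49 and 59.97 CPM in H9 and 55.7 and 64.6 CPM in HES2, against 89.2 and 90.3 CPM in shLuc (-0.645 ± 0.16, limma adjusted p = 0.0316). In all 3 the groups stood apart. On the annotation, 20.7% of TSR1 exon bases overlap SRR on the other strand, which had 28.6 and 37.6 CPM in H9 and 38.0 and 51.0 CPM in HES2, against 60.1 and 54.3 CPM in shLuc. For NOB1 20.2% of exon bases overlap the antisense gene AC092115.3, which had 15.9 and 23.0 CPM in H9 and 25.4 and 25.9 CPM in HES2, against 36.3 and 44.5 CPM in shLuc. Both overlapping genes were lower in every knockdown library than in both shLuc libraries, and how the reads divide within each pair was not tested. RIOK2, an atypical kinase of late pre-40S particles, averaged 33.2 ± 5.73 CPM in the knockdowns and 37.5 ± 0.641 CPM in shLuc (-0.19 ± 0.18, limma adjusted p = 0.495).

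**Figure D3:**
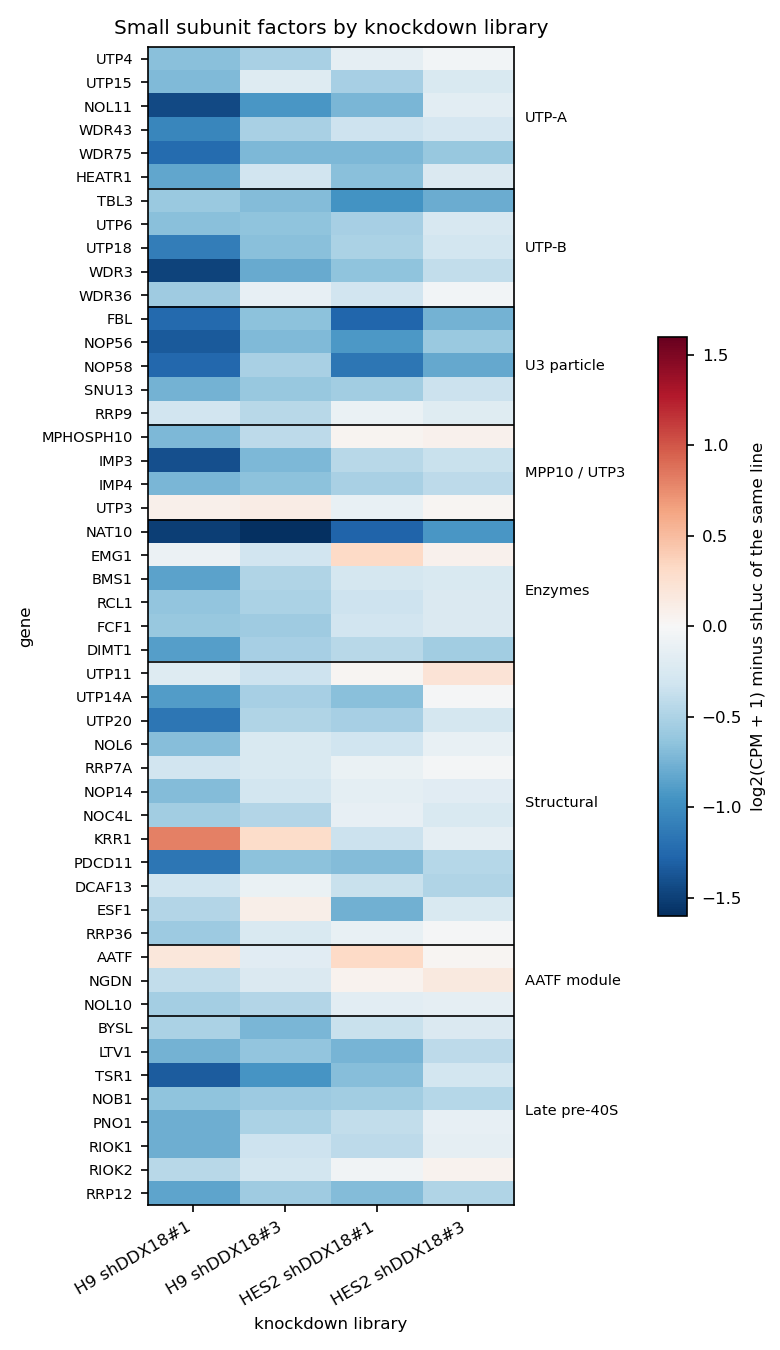
Difference of each knockdown library from the shLuc library of the same line, on log2(CPM + 1), for the 49 members (rows, by role) and the 4 knockdown libraries (columns), blue for lower and red for higher. The H9 shDDX18#1 column is the bluest, with a median of -0.71, and the HES2 shDDX18#3 column the palest, with -0.24.

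The hairpins left different amounts of DDX18, and each was set against shLuc in the same fit, so these comparisons share the shLuc libraries. Here the mean difference between the hairpins is not part of the spread, as it is in knockdown against shLuc. With shDDX18#1, 28 of 49 members fell and 0 rose (57.1% lower, against 13.4% of all genes lower and 14.4% higher), with a median of -0.60. With shDDX18#3, 6 fell and 0 rose (12.2% lower, against 3.69% of all genes lower and 6.96% higher), with a median of -0.36. At an unadjusted p under 0.05 there were 33 members lower and 0 higher with shDDX18#1, and 21 lower and 0 higher with shDDX18#3. Among all 17768 genes, 3571 were lower and 3563 higher at that level with shDDX18#1, and 2096 lower and 2594 higher with shDDX18#3. The 6 calls with shDDX18#3 were NAT10, FBL, TBL3, NOP58, NOP56 and WDR75. By role, shDDX18#1 called 5 of 6 UTP-A members, 4 of 5 UTP-B members, 4 of 5 proteins of the U3 particle and 5 of 8 late factors. With shDDX18#3 the same groups had 1, 1, 3 and 0 calls. FBL had a log2 fold change of -1.26 ± 0.13 with shDDX18#1 (limma adjusted p = 0.000454) and -0.71 ± 0.13 with shDDX18#3 (limma adjusted p = 0.0132). NAT10 had -1.39 ± 0.18 with shDDX18#1 (limma adjusted p = 0.00120) and -1.26 ± 0.18 with shDDX18#3 (limma adjusted p = 0.00475). The shDDX18#1 count was 9 without H9 shDDX18#1, 15 without H9 shDDX18#3, 14 without HES2 shDDX18#3, 15 without H9 shLuc and 15 with no cell line block, and the shDDX18#3 count was 0 without either shDDX18#3 library, 11 without HES2 shLuc and 0 with no block. With no block 5.64% and 0.0113% of all genes were lower with shDDX18#1 and shDDX18#3. Without H9 shDDX18#3 and without HES2 shDDX18#3, 7.43% and 7.17% of all genes were lower with shDDX18#1. In each of these fits the calls over all genes moved the same way as the member count, so the changed counts are not particular to the members. DESeq2 gave 13 and 3 members (6.35% and 1.8% of all genes lower), and limma without the trend 6 and 0 (6.72% and 0.174%).

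The difference between the hairpins was tested directly. In shDDX18#1 against shDDX18#3, limma called 0 of 49 members in either direction, as it did 0 of all genes (0.0%), and edgeR and DESeq2 called 0 members too. At an unadjusted p under 0.05 there were 9 members, all with the lower value in shDDX18#1, and the median was -0.19. Over all 17768 genes, 2536 had such a p, 1389 of them lower in shDDX18#1 and 1147 higher. Without either shLuc library 1 member was called lower. FBL had the smallest p among members, with a log2 difference of -0.55 ± 0.13 (limma adjusted p = 0.145), and DDX18 itself had -0.93 ± 0.22 (limma adjusted p = 0.145). HEATR1, NOP58 and NOP56 followed, with -0.48, -0.54 and -0.48. In H9, 39 of 49 members stood in the order shDDX18#1, shDDX18#3, shLuc, lowest first (28.5% of all genes did), and in HES2 37 did (28.1%). In both lines together 32 members did, against 15.8% of all genes, and 37 had shDDX18#1 below shDDX18#3 in both lines, against 33.6% of all genes. DDX18 stood in that order in both lines as well.

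**Figure D4:**
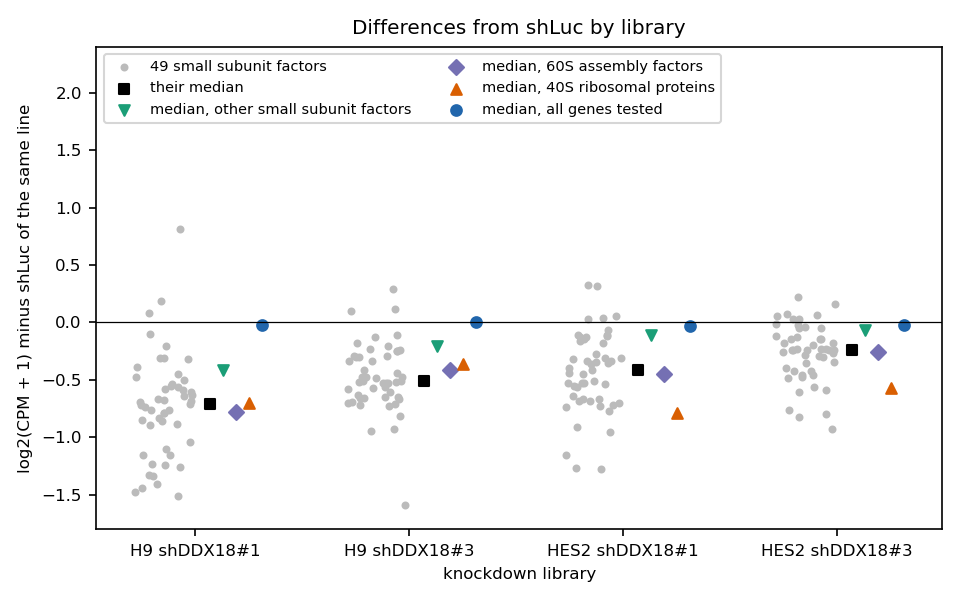
Differences from the shLuc library of the same line on log2(CPM + 1) in the 4 knockdown libraries: grey points are the 49 members, and symbols are medians of the members, of 28 other small subunit factors, 50 60S assembly factors, 30 40S ribosomal proteins and all genes tested. The members' medians are -0.71, -0.51, -0.42 and -0.24 from left to right, and those of all genes lie between -0.03 and 0.00.

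The knockdown difference was also taken within each line. Its median over the members was -0.34 in HES2 and -0.61 in H9, and 42 of 49 members (85.7%) were more negative in H9 than in HES2, against 51.1% of all genes. Member by member the lines were not shown to differ. The interaction term had 0 of 49 members called, as it had 0 of all genes (0.0%), edgeR and DESeq2 called 0, and 0 members had an unadjusted p under 0.05, against 788 of all genes. FBL had a difference of -1.01 in HES2 and -0.95 in H9, and NOP58 had -0.99 in HES2 and -0.89 in H9. NAT10 had -1.10 in HES2 and -1.55 in H9, TSR1 -0.49 in HES2 and -1.14 in H9, and NOL11 -0.45 in HES2 and -1.19 in H9. The values of a line share 1 shLuc library, so all members of that line move with it.

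**Figure D5:**
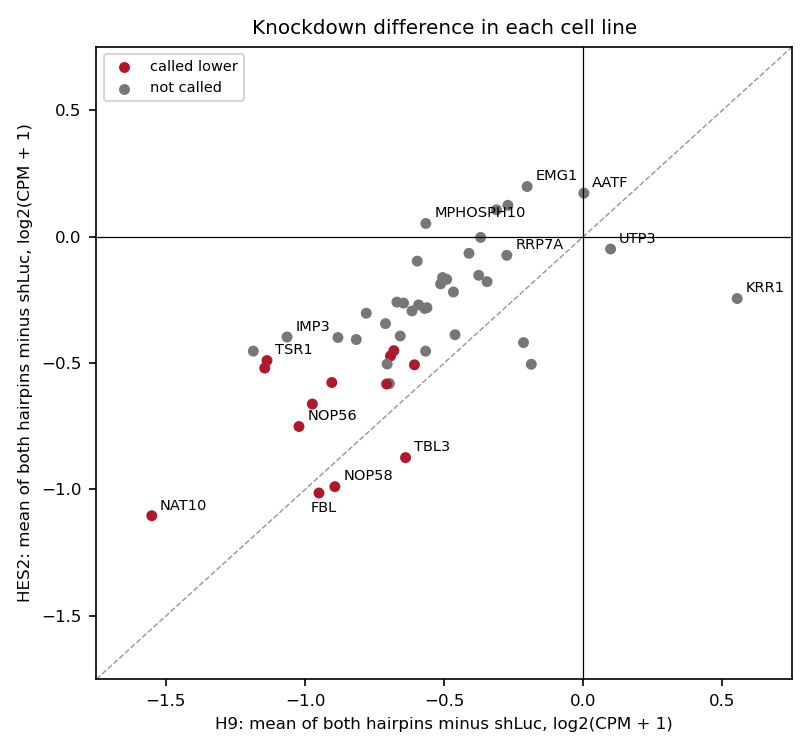
Mean of both hairpins minus shLuc on log2(CPM + 1), with HES2 up and H9 across, for each of the 49 members, red where called lower in knockdown against shLuc. The dashed line marks equal differences, and 42 points lie above it.

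HES2 was compared with H9 over all arms. Of the members, 1 was lower in HES2 and 0 were higher (3.98% of all genes were called lower and 1.44% higher), and 7 had an unadjusted p under 0.05, 4 of them lower and 3 higher. Such a p was met in 3741 of the 17768 genes tested, 2065 of them lower and 1676 higher. The call was RRP7A, which as yeast Rrp7 belongs to the UTP-C complex. It had 70.5, 74.35 and 76.2 CPM in HES2 with shDDX18#1, shDDX18#3 and shLuc, against 104, 109 and 129 CPM in the same arms of H9. The lines did not overlap, and the log2 difference was -0.62 ± 0.12 (limma adjusted p = 0.0221). The call was lost without any 1 of the 4 knockdown libraries, with reads scaled to the library total alone, with no arm block and without the intensity trend, and 2 members were called lower without either shLuc library. Its near copy RRP7BP had 14.2, 21.4 and 24.1 CPM in HES2 and 11.8, 15.9 and 23.8 CPM in H9 in the same order of arms, and reads of the pair can be misplaced. NAT10 was higher in HES2 in every arm, with 0.56 ± 0.15, but did not pass (limma adjusted p = 0.0703).

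Related lists showed where the members stood among the ribosome genes. Of 28 other small subunit factors, 3 fell and 1 rose (10.7% and 3.57%, against 6.26% of all genes called lower and 9.60% higher), with a median of -0.18. DHX37, whose yeast counterpart Dhr1 is the helicase that frees U3, had 50.2 and 62.2 CPM in H9 and 61.8 and 67.7 CPM in HES2, against 130 and 90.5 CPM in shLuc (-0.84 ± 0.20, limma adjusted p = 0.0278). KRI1, a partner of KRR1 in yeast, fell by 0.62 on the log2 scale (limma adjusted p = 0.0354). RIOK3, a kinase of pre-40S particles, rose: it had 87.4 and 53.8 CPM in H9 and 63.7 and 54.3 CPM in HES2, against 31.3 and 28.6 CPM in shLuc (1.06 ± 0.21, limma adjusted p = 0.0175). Of 50 assembly factors of the 60S subunit 13 fell and 1 rose (26% and 2%), with a median of -0.44, and the smallest p values were those of RRP1B (-0.83) and NOP53 (-0.80) among the falls and of SBDS (0.90) as the rise. Of 30 ribosomal proteins of the 40S subunit 16 fell (53.3%) and 0 rose, with a median of -0.61, led by RPS9 (-0.97) and RPS3 (-0.91).

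The lists differed in how they split between lines. The 40S ribosomal proteins had medians of -0.67 in HES2 and -0.56 in H9, and 5 of 30 were more negative in H9 than in HES2, while 39 of 50 assembly factors of the 60S subunit were, with medians of -0.32 in HES2 and -0.60 in H9. By library the ribosomal proteins had medians of -0.79 and -0.57 in HES2 with shDDX18#1 and shDDX18#3, and -0.70 and -0.36 in H9. These are counts, and no test of the difference between lists was made.

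Transcripts listed as cell type markers moved with the knockdown. Of 26 fibroblast and feeder markers 18 rose and 0 fell, with a median of 1.97 (9.6% of all genes were called higher and 6.26% lower). Together they took 9.76% and 3.80% of reads in H9 with shDDX18#1 and shDDX18#3 and 3.81% and 2.38% in HES2, against 0.783% in H9 shLuc and 0.333% in HES2 shLuc. FN1 alone took 4.76% and 1.66% in H9 and 2.85% and 1.56% in HES2, against 0.24% and 0.107% in shLuc. Of the 26 markers, DCN and FAP were listed at 0 in 2 libraries each, and the other 24 were above 0 in all libraries. POSTN had 1667 and 158 CPM in the H9 knockdowns and 31.8 CPM in H9 shLuc, but 1.61 and 0.835 CPM in the HES2 knockdowns and 1.57 CPM in HES2 shLuc. THY1 and S100A4 had negative estimates. Whether these transcripts came from other cells or from the stem cells was not tested. Of 20 pluripotent stem cell markers 12 fell and 0 rose, with a median of -1.17, and they took 0.478% to 0.655% of reads in the knockdowns, against 0.935% in H9 shLuc and 0.895% in HES2 shLuc. The part of these shifts in the fall of the members was not tested. Without H9 shDDX18#1, the library with the highest share of fibroblast markers, 14 members were called lower (6.32% of all genes were). Without HES2 shDDX18#1, the next highest, 1 was (1.39%), and without H9 shDDX18#3, close behind it, 16 were (9.19%). Every knockdown library that remained in any of these fits still had a higher share of these markers than both shLuc libraries.

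The authors' deposited table gave 19 of the 49 members a false discovery rate under 0.05 with a negative fold change and 0 with a positive one, against 9.42% of all its genes with a negative one. All 13 calls made here with limma are among the 19 of the authors' deposited table.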

How the data were processed

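RNA sequencing of 6 libraries was analysed, 1 per arm in each of H9 and HES2. The TruSeq RNA kit used for them records no strand. Per the submitters' processing notes, edgeR 3.26.8, HTSeq 0.11.2, SAMtools 1.9 and Bowtie2 2.3.4.3 were used with hg19, and the role of each is not given in the sources used here. The authors deposited 1 table, of 17929 genes, that holds a normalized signal for every library. Beside it the authors give their own test: the log2 fold change, a log2 mean, a likelihood ratio score, and the p-value with and without adjustment. The score and the mean were not used here. In all 6 columns 100% of the deposited signal values were whole multiples of the worth of 1 read, within 0.001, so the signal is CPM. The reads recovered in this way served edgeR 4.0.16 and DESeq2 1.42.0.

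A gene was tested if 2 or more libraries had 1 CPM or more, with limma 3.58.1 in R 4.3.3 (intensity trend) on log2(CPM + 1), over the whole table, with cell line as a block and Benjamini-Hochberg adjustment. All fold changes are on that scale, and genes were called at an adjusted p under 0.05. The block rests on same-numbered libraries being of the same cell line, and the deviations of libraries of a line from their arm means correlated at 0.363 to 0.654. The models were knockdown against shLuc, each hairpin against shLuc, the hairpins against each other, the line by knockdown interaction, and HES2 against H9 with the arm as a block. The members and lists were chosen with earlier results of these data known.

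Named were, in each role group, the 3 members with the smallest p and the one with the largest, members called in other comparisons (up to 6 each), and up to 2 called genes per direction of each related list. The rest of the calls, KRR1, RCL1, HEATR1, NOP14 and the members with directions that differ between lines were named after their values were seen. Promoters came from RefSeq on GRCh38.p14 and exon overlaps from GENCODE, while positions on hg19 were not used. Alternatives were other pseudocounts (0.25, 4), filters, scalings, variance models, tools, no block, and leaving out each library.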

Additional observations from a re-analysis of the deposited data

Results flagged for a closer look

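In 5 members every knockdown library moved one way in HES2 and the opposite way in H9, relative to the shLuc library of the line. The interaction term in limma tested the difference, given as the effect in HES2 minus that in H9, and its adjusted p was 1.0 for each. KRR1 had -0.80, with both hairpins below shLuc in HES2 and above it in H9. MPHOSPH10 had 0.62, NGDN 0.42, EMG1 0.40 and UTP11 0.395, each with both hairpins above shLuc in HES2 and below it in H9. Exons of KRR1 and EMG1 overlap genes of the opposite strand. The share of all genes with this pattern was not counted. By the mean of both hairpins, 44 of 49 members lay below 0 in HES2, 46 in H9 and 42 in both lines. Of the 17768 genes tested, 9222 lay below 0 in HES2, 9029 in H9 and 6795 in both, so line means of opposite sign were common.

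A single library stood apart from the other knockdown libraries in 3 members. WDR43 had 92.7 CPM in H9 shDDX18#1, with the nearest of the others at 128 CPM and the farthest at 134 CPM. NOP14, a scaffold protein of the processome, had 60.03 CPM in the same library, with the others between 76.6 and 79.4 CPM. UTP6 had 72.4 CPM in HES2 shDDX18#3, with the others between 59.9 and 61.9 CPM. Of the 49 members tested in this way, chance flags about 1 in 20.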

How the results depend on the processing

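Leaving out each library in turn, members called lower ran from 0 to 16 in knockdown against shLuc, from 9 to 28 with shDDX18#1, from 0 to 11 with shDDX18#3, from 0 to 1 in shDDX18#1 against shDDX18#3 and from 0 to 2 in HES2 against H9, where 0 to 1 were higher. Limma without the trend gave 1, 6 and 0 members lower for knockdown, shDDX18#1 and shDDX18#3 against shLuc, and 0 in HES2 against H9. With no replicate block these counts were 5, 15, 0 and 0. DESeq2 gave 13 with shDDX18#1 and 3 with shDDX18#3. Scaling to the library total gave 0 lower and 1 higher in HES2 against H9, and quantile normalization 1 higher. Over all genes, edgeR on the recovered reads called 1189 lower in knockdown against shLuc, and limma 1113. NAT10 was the 1 call kept in every alternative with all 6 libraries, and its adjusted p was 0.0616 without H9 shLuc. The median over members ran from -0.61 to -0.34, and 42 of 49 estimates stayed below 0 in all 18 alternatives. Among the members named, signs turned for KRR1 (-0.245 to 0.553 as libraries were left out), EMG1 (0.018 with median-of-ratios size factors and with DESeq2, and -0.202 to 0.198 as libraries were left out), UTP3 (-0.005 with scaling to the library total, and -0.049 to 0.098 as libraries were left out), and, as libraries were left out, MPHOSPH10 (-0.566 to 0.052), UTP11 (-0.271 to 0.124) and NGDN (-0.312 to 0.106). The highest values of MPHOSPH10, EMG1, UTP11 and NGDN and the lowest of KRR1 and UTP3 were without H9 shLuc. Without that library only HES2 holds a control, so with the line block these estimates equal the HES2 differences. No cause of the opposite signs in the lines was tested. The interaction could not be fitted with no block or without a shLuc library. With 1 library per arm and line, only 2 shLuc libraries carry the control level. An arm left with a lone library was taken to vary as the other arms do. Calls over all genes also moved as libraries were left out, so a changed member count there is not particular to the members.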
